A study of Sus scrofa with 12 samples.

Results

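The miR-181 family was followed in pig testis through every mature miRNA whose name begins with miR-181 and a letter from a to d. This rule took 5 of the 765 names in the small RNA files, which were miR-181a, miR-181b, miR-181c, miR-181d-5p and miR-181d-3p. The 5 names stood on 7 of 845 rows, and for a name on several rows the row with the highest mean read count was kept. All samples were testis of male pigs aged 12 months, from the commercial breeds Duroc (Western Duroc in the labels) and Large white. No treatment or genetic change is given for either breed. Each breed had 3 small RNA libraries, made with a TruSeq small RNA kit and read from a single end. The labels do not state whether the libraries of a breed are from separate animals, so the p-values measure only the spread between these libraries, which may in part be technical. Testis is a mixture of germ cells, Sertoli and Leydig cells, vessels and blood, and in such bulk samples fewer cells of a type and less RNA per cell cannot be told apart.

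miRNAs are short RNAs, cut from hairpin precursors, that guide Argonaute proteins to messenger RNAs through a short stretch near their own 5′ end, the seed. The mature 5p strands of the miR-181 family share their seed and are therefore predicted to recognise largely overlapping sets of targets. The family is best known from lymphocytes, where miR-181a tunes the sensitivity of the T cell receptor, and from vessel walls, where miR-181b dampens inflammatory signalling. The opposite strand of a precursor, the 3p strand, is usually degraded. The family is made from paired precursors at 3 places in the genome, so that each pair gives 2 mature miRNAs from 1 locus.

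In the RefSeq annotation of the assembly Sscrofa11.1, the assembly that the build susScr11 denotes, all 6 precursors were found. The mir-181b-1 hairpin lies on chromosome 10 at 21696492 to 21696571, and mir-181a-1 at 21696653 to 21696756, 81 bases further on. Both lie within the span of LOC110255652, annotated as protein coding. The second pair lies on chromosome 1 within the span of NR6A1, an orphan nuclear receptor known from germ cells. There mir-181a-2 lies at 265497249 to 265497328 and mir-181b-2 at 265499111 to 265499196, with 1782 bases between them. The third pair lies on chromosome 2, outside any other gene listed, with mir-181d at 65279773 to 65279852 and mir-181c at 65279950 to 65280036, 97 bases apart. The table gives the span of a gene without strand or exons, so whether a hairpin is intronic or exonic is not stated here.

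Before the levels are given, the scale needs a word, because 2 of the Duroc libraries, numbers 1 and 3, were unlike the remaining 4. The share of reads taken by miR-143-3p of smooth muscle alone was 51.5% and 35.5% there. It was 25.5% in Duroc library 2, and Large white ranged from 18.9% to 29.5%. Shares of 1 total depend on each other, so RPM values carry such differences. The trimmed mean scaling of edgeR (TMM) sets the libraries to one level on the bulk of the miRNAs instead, and its factor was 0.464 in Duroc library 1. Levels are given below both as RPM, which is reads scaled to the library's total with each name counted once, and as TMM-normalised RPM. A read covers a whole mature miRNA, so that levels of different miRNAs need no correction for length. Whether the kit captured each miRNA equally well was not measured. Levels of different miRNAs therefore compare reads, which need not equal molecules. As a check of the tissue, the gonadal miR-202-5p had 9262 to 12036 TMM-normalised RPM in all 6 libraries, and miR-34c of meiotic and later germ cells 2774 to 15959.

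By reads, miR-181a was the main member of the family in testis of both breeds. In order of library number, its level was 1524, 1014 and 1359 TMM-normalised RPM in the Duroc libraries. The Large white libraries had 1293, 1295 and 1283. The Large white libraries were nearly equal, and the Duroc libraries lay on both sides of them, with libraries 1 and 3 above and library 2 below. The means were 1299 ± 260.1 and 1291 ± 6.36 (SD, n = 3 each). These values rest on 2131 to 9223 reads per library, and counting alone gives an error of 2.17% at the lowest of these. By mean RPM, miR-181a ranked 51 of all 765 names.

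miR-181b, which differs from miR-181a in sequence and is made from the same precursor pairs, came next. It had 196.4, 167.3 and 212.6 TMM-normalised RPM in the Duroc libraries, in the same order, and the Large white libraries had 196.6, 203.6 and 226.5. The breeds overlapped, and Duroc library 2 was again the lowest. The Duroc mean was 192.1 ± 22.9 and the Large white mean 208.9 ± 15.6 (SD, n = 3 per breed), from 351 to 1443 reads per library.

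The chromosome 2 pair gave fewer reads than miR-181a and miR-181b. For miR-181d-5p the Duroc libraries had 95.7, 78.0 and 97.1 TMM-normalised RPM and the Large white libraries 99.7, 93.7 and 80.1. Duroc library 2 and Large white library 3 were the low ones here. Its means were 90.2 ± 10.7 and 91.2 ± 10.04 (SD, n = 3 each). miR-181c had 53.5, 28.6 and 36.1 TMM-normalised RPM in Duroc and 31.9, 47.0 and 43.4 in Large white, and both the highest and the lowest value were in Duroc. Its means were 39.4 ± 12.8 and 40.8 ± 7.88 (SD, n = 3 each), and with as few as 57 reads in Large white library 1 the counting error there was 13.2%.

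The 3p strand of mir-181d was at the limit of detection. The Duroc libraries held 0, 1 and 2 reads of miR-181d-3p, and the Large white libraries 1, 0 and 0. A floor of 3 reads corresponds to 0.240 RPM in the deepest library and 2.28 RPM in the shallowest, and the level of this strand lay at or below that floor throughout. Over the 6 libraries it made up 4 of the 2117 reads of mir-181d, or 0.189% (95% exact Clopper-Pearson interval 0.0515% to 0.483%, for counting error only). It was the only 3p strand among the 5 names, and it did not reach the minimum for a test between the breeds. A breed difference in the choice of strand was therefore not detectable at this depth.

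The order miR-181a, miR-181b, miR-181d-5p, miR-181c, miR-181d-3p held in each of the 6 libraries. On the log2(RPM + 0.5) scale, miR-181a exceeded miR-181b by 2.68 ± 0.15 (SD, n = 6), miR-181b exceeded miR-181d-5p by 1.14 ± 0.18, and miR-181d-5p exceeded miR-181c by 1.195 ± 0.34. miR-181c exceeded the nearly absent miR-181d-3p by 5.88 ± 0.76, a size that depends on the number added. Each of the 4 neighbouring pairs differed in the same direction in 6 of 6 libraries, with p = 0.0312 and the same value after Benjamini-Hochberg adjustment over the 4 pairs (exact two-sided sign-flip permutation test, n = 6). That is the smallest p that 6 libraries allow. No neighbours in this order of reads were therefore within their spread of each other.

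**Figure D1:**
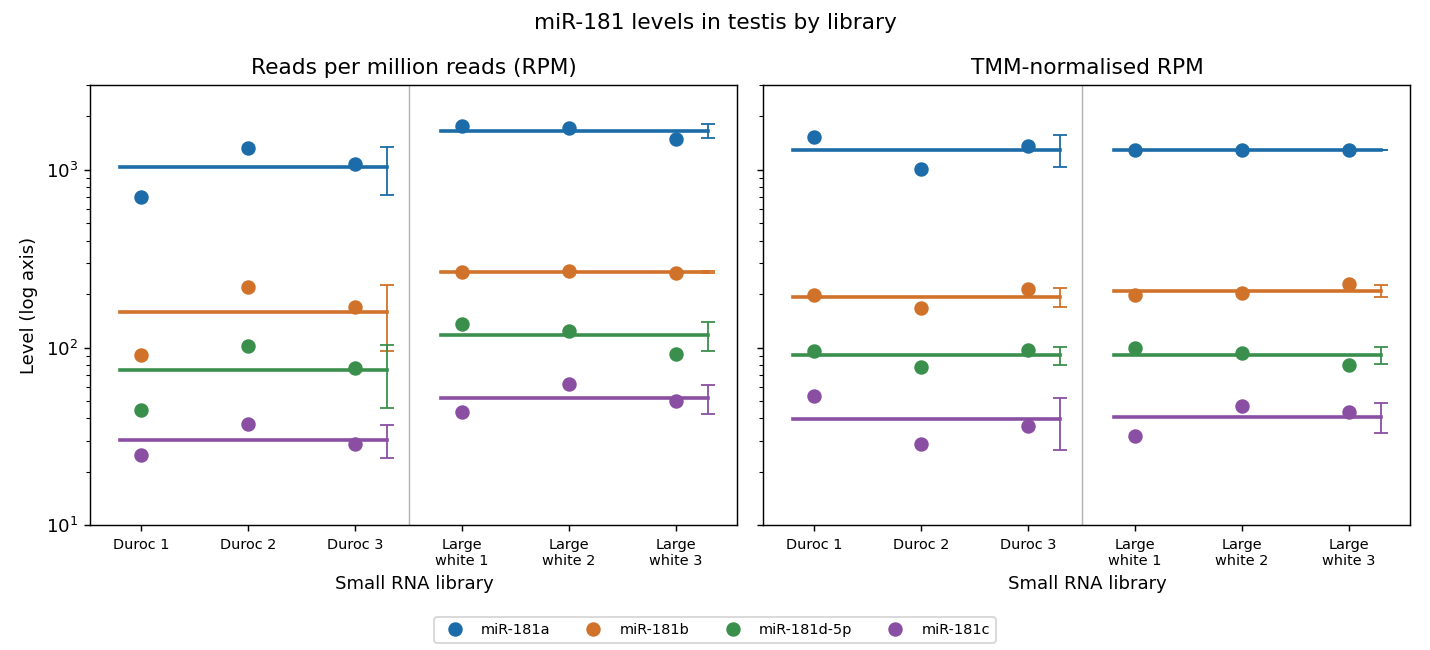
Level of the 4 members above the floor, on a log axis, in each of the 6 small RNA libraries, as RPM (left) and TMM-normalised RPM (right). Points are libraries, horizontal lines are breed means and the bars at their right end are the SD (n = 3). The left panel has every Duroc value of miR-181a, miR-181b and miR-181c below Large white, and the right panel has the breeds overlapping for all 4.

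No member passed the test between the breeds. Of the 5, the 4 that reached 1 RPM in at least 3 libraries were tested with edgeR's quasi-likelihood test over 421 miRNAs, and miR-181d-3p was not. None of the 4 passed an adjusted p of 0.05, as did 0 of all 421 (0%), nor did any by DESeq2 or limma. Before adjustment none of the 4 lay under 0.05, where 60 of the 421 did (14.3%), and of all 421 DESeq2 called 11. The log2 fold change, Duroc minus Large white with TMM, was 0.01 (SE 0.23, 95% interval -0.53 to 0.54, adjusted p = 0.979) for miR-181a. It was -0.12 (SE 0.22, interval -0.62 to 0.38) for miR-181b, -0.01 (SE 0.24, interval -0.55 to 0.52) for miR-181d-5p and -0.05 (SE 0.32, interval -0.79 to 0.69) for miR-181c. The TMM intervals still allow a level in Duroc between 0.694 and 1.46 times that in Large white for miR-181a. For miR-181c they allow between 0.579 and 1.61 times. These bounds depend on the scaling. With reads scaled to the library total they were 0.363 to 1.08 times for miR-181a and 0.299 to 1.13 times for miR-181c. The median log2 fold change over the 4 with TMM was -0.03, beside 0.06 over all 421.

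The scaling moved these values together. In RPM, the Duroc libraries had 707.3, 1324 and 1076 for miR-181a, against 1759, 1719 and 1480 in Large white, so that all Duroc libraries were lower. miR-181b had 91.1, 218.5 and 168.4 against 267.3, 270.2 and 261.2, and miR-181c had 24.9, 37.4 and 28.6 against 43.4, 62.4 and 50.0, each without overlap. miR-181d-5p had 44.4, 101.8 and 76.9 against 135.6, 124.4 and 92.4, where Duroc library 2 overlapped with Large white library 3. Thus 3 of 4 members did not overlap in RPM, all lower in Duroc, where 22.1% of the 421 did so. With TMM none of the 4 was without overlap, against 23.3% of the 421.

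With reads scaled to the library total, the log2 fold change was -0.67 for miR-181a, -0.74 for miR-181b, -0.78 for miR-181c and -0.66 for miR-181d-5p, with edgeR adjusted p-values of 0.419 or more, and again 0% of all miRNAs passed. The median of all 421 miRNAs moved with them, from 0.06 to -0.56, and 81.7% of all miRNAs then had a negative log2 fold change. Relative to that median the members lay between -0.23 and -0.11, and with TMM between -0.18 and -0.05. With the 5 most abundant miRNAs left out of the total, a setting chosen after the data were seen, they had log2 fold changes between -0.26 and -0.15 beside a median of -0.11. The family's share of all reads was 0.0868%, 0.168% and 0.135% in the Duroc libraries and 0.221%, 0.218% and 0.188% in the Large white libraries. Of the reads outside those 5 miRNAs its share was 0.411%, 0.416% and 0.476% in Duroc and 0.494%, 0.496% and 0.476% in Large white, where Duroc library 3 just overlapped with Large white library 3.

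**Figure D2:**
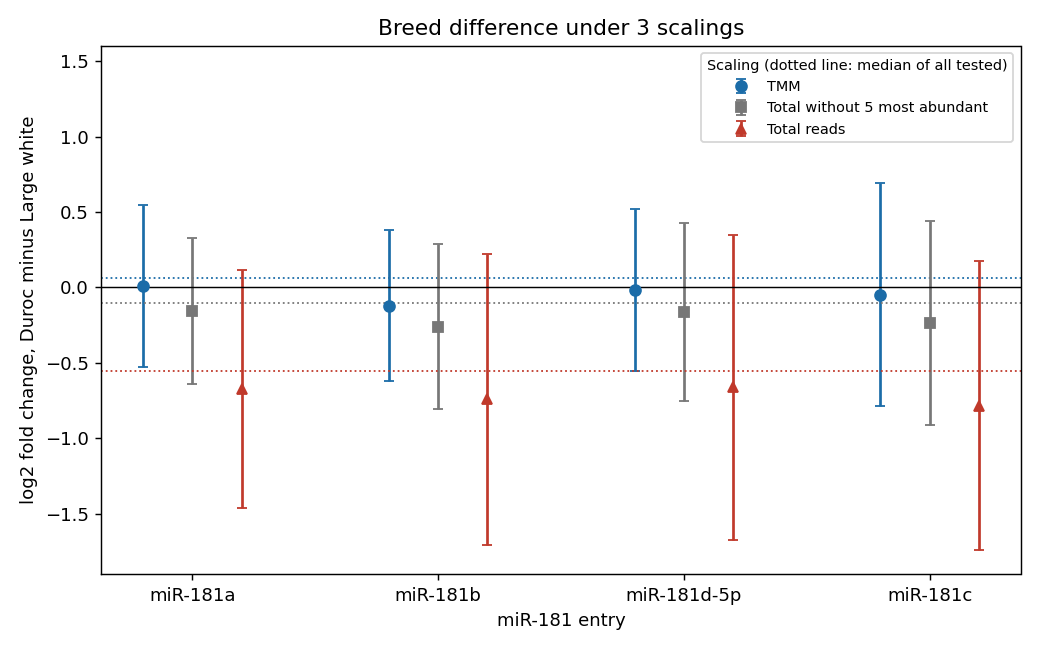
Log2 fold change between the breeds (Duroc minus Large white, 3 libraries each) of the 4 tested members under 3 ways of scaling the libraries. Bars are 95% intervals and the dotted line of each colour is the median of all 421 miRNAs under that scaling. All intervals include 0, and members and median move down together from TMM to total reads.

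Duroc library 2, whose share of miR-143-3p (25.5%) was the only Duroc one within the range of Large white, was set against Large white on its own, with the spread taken from Large white only. All 4 members were then lower in Duroc, with log2 fold changes of -0.31 for miR-181a, -0.29 for miR-181b, -0.48 for miR-181c and -0.19 for miR-181d-5p, and none passed, as did 1 of 396 miRNAs (0.253%). All 4 lay below every Large white library, as did 29.8% of the 396. Without Duroc library 2, the log2 fold changes were 0.14, -0.05, 0.11 and 0.06 in the same order, and again none of the 4 passed, while 65 of 402 miRNAs (16.2%) did. With TMM, miR-181a then lay above every Large white library in both remaining Duroc libraries. Of those miRNAs, 48.5% did not overlap, in one direction or the other. For miR-181a, the near-zero mean difference with TMM thus joins Duroc libraries that lay above Large white and 1 that lay below it. That split depends on the scaling, since in RPM all Duroc libraries (707.3, 1324 and 1076) lay below Large white (1759, 1719 and 1480). With TMM, miR-181c also had Duroc values on both sides of Large white. On that scale no Duroc library lay above all Large white libraries in miR-181b or miR-181d-5p. Some of the marker miRNAs differed between the same libraries, and others did not follow that split. miR-34c, the only 1 of 5 listed germ cell miRNAs found in the files, was at 2774 (library 1), 15862 (library 2) and 4156 (library 3) TMM-normalised RPM in Duroc. The 2 endothelial miR-126 strands summed to 13301, 8776 and 11894 in the Duroc libraries, with Large white at 9130 to 9737. In Duroc library 3, miR-126-5p alone was at 698.8, within Large white (605.9 to 713.8). The 4 smooth muscle miRNAs summed to 1113801, 196927 and 450662 in the Duroc libraries, with Large white at 141138 to 258055. That sum was nearly all miR-143-3p, at 1109896, 195490 and 448529 in Duroc. In Duroc library 1, miR-143-5p (237.8) and miR-145-5p (3209) lay above Large white, and miR-145-3p (458.6) within it. In Duroc library 3, miR-143-5p (106.9) and miR-145-5p (1500) lay within Large white, at 72.8 to 125.9 and 1487 to 2068. For miR-145-3p, Duroc library 3 had 526.5, just above Large white at 281.2 to 516.7. The 5 leukocyte miRNAs summed to 262.9, 152.2 and 136.3 in the Duroc libraries and 168.0 to 208.4 in Large white, with none of them at 0. They did not go 1 way: with TMM 2 had a positive log2 fold change and 3 a negative one. miR-142-5p was higher in all Duroc libraries (91.9, 75.5 and 58.3 against 57.1, 50.5 and 56.6). miR-223 was lower in all of them (9.67, 6.17 and 3.54 against 12.9, 9.96 and 10.8). Of all 421 miRNAs, 23.3% did not overlap. The 3 red cell miRNAs summed to 5951, 4234 and 2071 in Duroc, with Large white at 1795 to 4219. Nearly all of it was miR-451, at 5893, 4165 and 2033 in Duroc. miR-486 went the other way, with 55.3, 64.4 and 37.6 in Duroc against 53.2, 279.1 and 69.3 in Large white. miR-144 rested on 2 to 21 reads per library. Both miR-202 strands of gonadal somatic cells summed to 9711, 10686 and 10267 in Duroc, with Large white at 10918 to 12458. That sum was mostly miR-202-5p, which was lower in all Duroc libraries (log2 fold change -0.22), where 23.3% of all 421 miRNAs did not overlap. miR-202-3p went the other way (log2 fold change 0.40), with 449.2, 735.5 and 742.7 in Duroc against 422.3, 492.7 and 540.8. The part of these marker miRNAs in the miR-181 levels was not tested.

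Over the 6 libraries, 3 members were among the steadier miRNAs on the TMM scale. The SD of log2(TMM-normalised RPM + 1) was 0.15 for miR-181b, 0.15 for miR-181d-5p, 0.19 for miR-181a and 0.34 for miR-181c, beside a median of 0.49 over the 421. Counted from the smallest SD, these took places 11, 12, 21 and 108. Within Large white the SD of miR-181a was 0.0071, and in Duroc it was 0.30. The Large white values (1293, 1295 and 1283) lay closer together than the counting error of 2.17% at the lowest count. Their SD thus understates the spread to be reckoned with, and a breed difference in spread was not tested.

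The make-up of the family does not depend on the scaling, and it was close to the same in all libraries. miR-181a made up 81.5%, 78.7% and 79.7% of the family's reads in the Duroc libraries. In the Large white libraries it was 79.7%, 79.0% and 78.6%. miR-181b made up 10.50% to 13.0% in Duroc and 12.1% to 13.9% in Large white. miR-181d-5p made up 4.90% to 6.15% and miR-181c 1.97% to 2.87% over the 6 libraries, with both breeds overlapping. The difference in mean share, Duroc minus Large white, was 0.876 percentage points for miR-181a and -0.814 for miR-181b. It was below 0.1 percentage points in size for the other 3. No share differed beyond the spread between libraries (exact two-sided permutation test, p between 0.5 and 1, adjusted p = 1 for all 5), in a design whose smallest p is 0.1.

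The balance between loci was steady too. Together, miR-181a and miR-181b had 11.5, 11.1 and 11.8 reads for each read of miR-181c and miR-181d-5p in the Duroc libraries, and 11.3, 10.6 and 12.2 in the Large white libraries. The ratio of miR-181a to miR-181b was 7.76, 6.06 and 6.39 in Duroc and 6.58, 6.36 and 5.67 in Large white, highest in Duroc library 1. Over the 6 possible pairs among the 4 members, the exact permutation p for a breed difference in log2 ratio was between 0.5 and 1, and adjusted p was 1 in each. The 2 miRNAs of the chromosome 2 pair varied more towards each other. The SD of their log2 ratio over the 6 libraries was 0.34, against 0.15 for miR-181a to miR-181b. The other ratios with miR-181c were wide too, at 0.30 for miR-181b and 0.23 for miR-181a. Since miR-181c had the fewest reads of the 4 members, counting error adds to its ratios most. Per read of miR-181c, the Duroc libraries had 1.79 (95% exact interval 1.55 to 2.06, for counting error only), 2.72 (2.20 to 3.40) and 2.69 (2.32 to 3.13) reads of miR-181d-5p. In Large white the ratio was 3.12 (2.31 to 4.29), 1.99 (1.62 to 2.46) and 1.85 (1.38 to 2.496). The interval of Duroc library 1 did not overlap with those of the other 2 Duroc libraries. These intervals leave out the differences between animals or preparations.

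**Figure D3:**
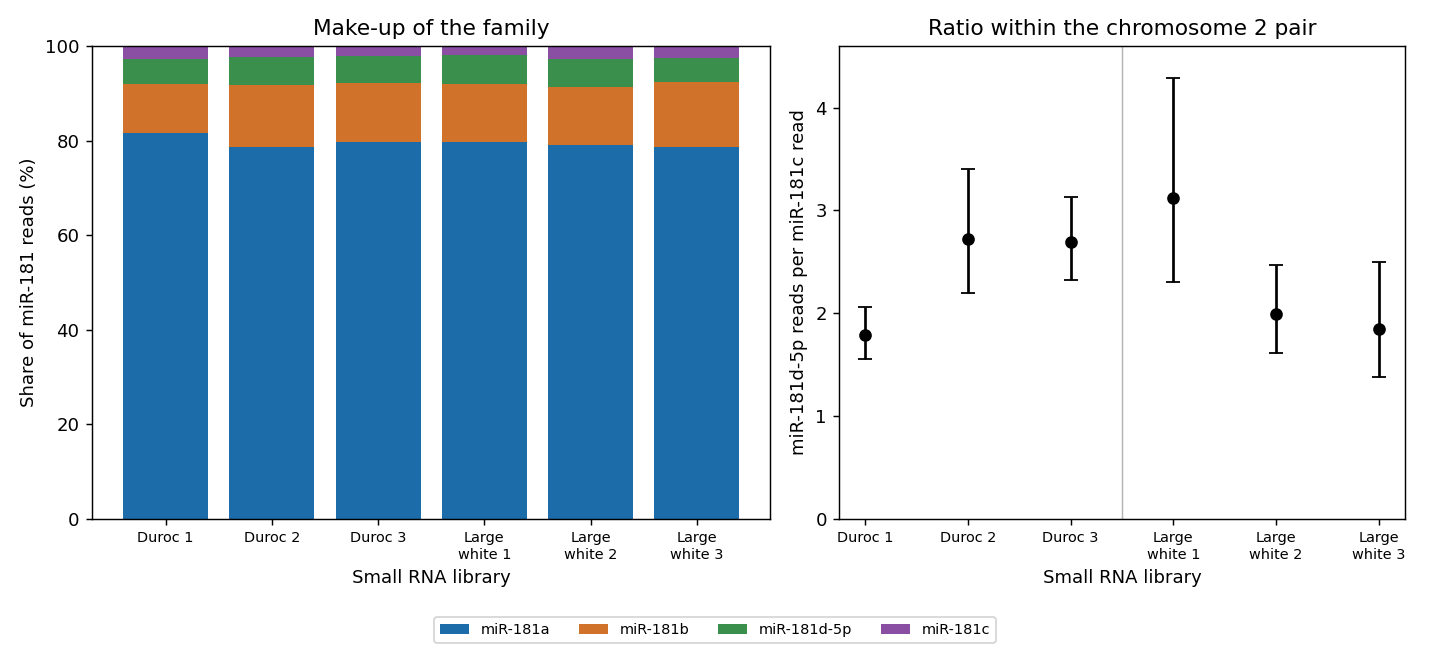
Left, share of each of the 4 main members among the reads of the family in each library, in percent, with miR-181a between 78.6% and 81.5%. Right, reads of miR-181d-5p per read of miR-181c, with 95% exact intervals for counting error, from 1.79 in Duroc library 1 to 3.12 in Large white library 1.

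The rows of the duplicated loci were equal or nearly so. The 2 rows of miR-181a, under mir-181a-1 on chromosome 10 and mir-181a-2 on chromosome 1, held the same number of reads in 6 of 6 libraries. The 2 rows of miR-181b were almost equal. The row under mir-181b-2 exceeded that under mir-181b-1 by 22, 7 and 19 reads in the Duroc libraries and by 9, 13 and 24 in the Large white libraries. That was 1.03% to 2.56% of the row in 5 libraries and 6.38% in Large white library 3. The 2 loci can thus not be told apart in these levels, and whether a read with several matches was counted in full under each precursor is not stated.

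The chromosome 2 pair has neighbours that are miRNAs themselves. The precursors of miR-23a, miR-27a and miR-24-3p, a cluster known from endothelium and blood cells, begin 28080 bases beyond mir-181c, at 65308117 to 65308186 for mir-23a, 65308294 to 65308375 for mir-27a and 65308453 to 65308524 for mir-24-1. miR-24-3p is also listed under a second precursor with nearly the same reads. For miR-27a the Duroc libraries had 2809, 1074 and 2167 TMM-normalised RPM and the Large white libraries 682.2, 947.2 and 946.8, so the breeds did not overlap. Of all 421 miRNAs, 23.3% did not overlap with TMM. With edgeR, miR-27a missed the threshold, at a log2 fold change of 1.23 (SE 0.36, adjusted p = 0.193). miR-24-3p had 10214, 3769 and 6808 in Duroc against 3020, 3380 and 3774 in Large white, with a log2 fold change of 1.03 (SE 0.36, adjusted p = 0.250). miR-23a had 1465, 506.8 and 680.9 against 685.0, 516.4 and 615.5, with 0.55 (SE 0.39, adjusted p = 0.475). All 3 were highest in Duroc library 1. Per read of miR-181c, which needs no scaling, miR-27a had 52.5, 37.5 and 60.1 reads in the Duroc libraries, and 21.4, 20.1 and 21.8 in the Large white libraries. Per read of miR-181d-5p it had 29.4, 13.8 and 22.3 against 6.84, 10.1 and 11.8. Both ratios were higher in all Duroc libraries than in any Large white library. Those of miR-24-3p did not overlap either, while those of miR-23a did. miR-23a had 27.4, 17.7 and 18.9 reads per read of miR-181c in the Duroc libraries against 21.5, 10.98 and 14.2, and 15.3, 6.50 and 7.01 per read of miR-181d-5p against 6.87, 5.51 and 7.68. These ratios were chosen after the values were seen and were not tested, and no share over all miRNAs was computed for them. With TMM, miR-181c and miR-181d-5p had log2 fold changes of -0.05 and -0.01. The ratios thus largely repeat the levels of miR-23a, miR-27a and miR-24-3p.

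**Figure D4:**
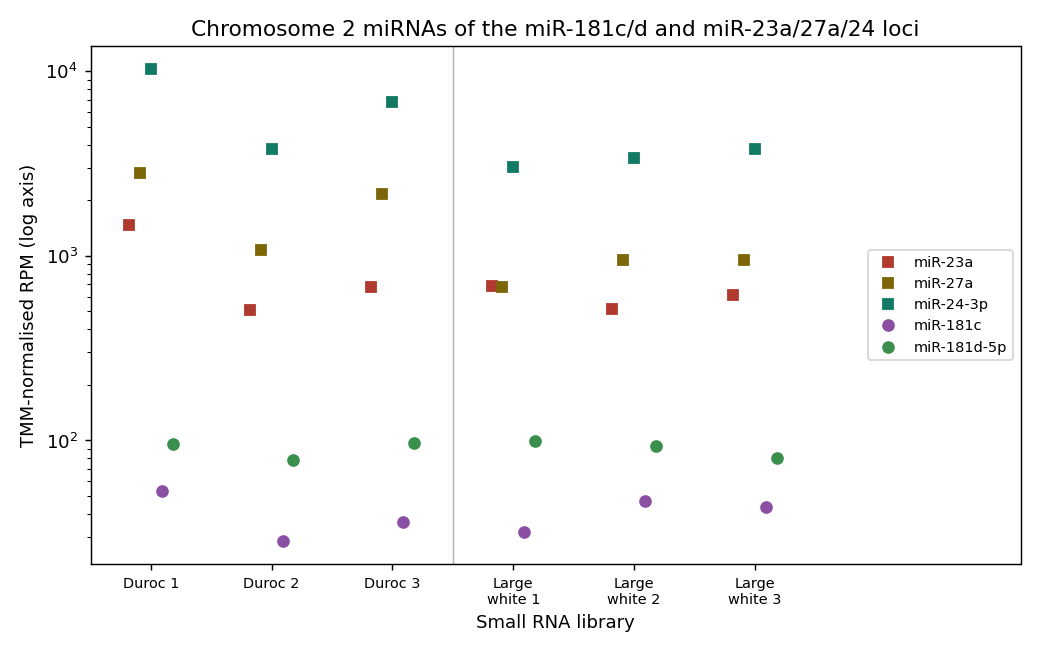
TMM-normalised RPM, on a log axis, of miR-181c and miR-181d-5p (circles) and of the neighbouring miR-23a, miR-27a and miR-24-3p (squares) in each of the 6 small RNA libraries, with points set slightly apart sideways. The circles lie between 28.6 and 99.7 in both breeds, while miR-27a is at 1074 to 2809 in Duroc and 682.2 to 947.2 in Large white.

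Among a wider list of 11 vascular and immune miRNAs, to which that cluster was counted, 0 of 11 passed edgeR's test in either direction. With TMM 9 had a positive log2 fold change and 2 a negative one, with a median of 0.36 beside 0.06 over all 421, and with total scaling 2 were positive and the median was -0.31 beside -0.56. Of the 11, 2 did not overlap between the breeds with TMM, near the 23.3% of all miRNAs. They were miR-27a and the myeloid miR-223, which was lower in Duroc with 9.67, 6.17 and 3.54 TMM-normalised RPM against 12.9, 9.96 and 10.8. The endothelial miR-126-3p, the most abundant of the list, had 12437, 8295 and 11195 in Duroc and 9036, 8991 and 8524 in Large white. Its order over the Duroc libraries, with library 1 highest and library 2 lowest, was that of miR-181a. In the same list miR-126-5p, miR-150, miR-23a, miR-27a and miR-24-3p had this order too, and the rest had other orders. The order was thus not particular to miR-126-3p, and the share of all 421 miRNAs with it is not given here. It also depends on the scaling. In RPM miR-181a had the reverse order, with 707.3, 1324 and 1076 in the Duroc libraries, whose TMM factors were 0.464, 1.306 and 0.792.

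The miRNAs whose levels were most like those of miR-181a over the 6 libraries, by Pearson's r on log2(TMM-normalised RPM + 1) among 420 others, were miR-10b (r = 0.97), miR-29a-3p (r = 0.97) and miR-126-5p (r = 0.96). Spearman's rho was 0.49, 0.83 and 0.83. Without Duroc libraries 1 and 2, the farthest from the median, r was -0.47, 0.81 and 0.41, so the likeness to miR-10b and miR-126-5p rested on those 2 libraries. Since these miRNAs were picked for their r out of 420 from the same libraries, no p is given. miR-126-5p had 863.4, 481.9 and 698.8 in Duroc and 700.1, 713.8 and 605.9 in Large white, and like miR-181a it had a log2 fold change near 0 (0.02, SE 0.27). The other members ranked behind these, at 33 for miR-181c (r = 0.77), 51 for miR-181d-5p (r = 0.71) and 81 for miR-181b (r = 0.63). Their Spearman's rho was 0.71, 0.60 and 0.086 in that order. Without Duroc libraries 1 and 2 their r was -0.33, 0.47 and 0.016, so the likeness of miR-181c and miR-181b to miR-181a rested on those libraries too. With RPM in place of TMM-normalised RPM, other miRNAs led, namely miR-30e-3p, let-7f-5p and miR-186-5p with r = 0.99 each, and miR-181b and miR-181d-5p then ranked 12 and 19. On that scale all of them share the low values of Duroc library 1.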

How the data were processed

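Per the file headers, the deposited small RNA tables list a read count for each pair of mature miRNA and precursor. Beside it stands RPM, which the authors scaled to the sum of counts over all 845 rows. The submitters' processing notes name STAR 2.7.10a, Salmon 1.9.0, Bowtie 1.3.1 and susScr11. The program behind the counts, and its treatment of reads with several matches, is not given in the sources used here. No use was made of the long RNA files. Library totals over all rows, repeated rows included, were 3473206 to 13209412 reads for Duroc and 1481386 to 2483001 for Large white.

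Counts of the 421 names with at least 1 deposited RPM in at least 3 of 6 libraries were fitted by edgeR 4.0.16 under R 4.3.3 (quasi-likelihood, TMM, breed as the only term), with Benjamini-Hochberg adjustment. Approximate SEs divide the fold change by the square root of F. The fit was tested on simulated data with known changes. It recovered 3 of 20 changes of 2-fold, 19 of 20 of 4-fold and 18 of 20 of 8-fold, with 1 false call. Most 2-fold changes were thus missed. RPM was recomputed with 1 row per name. DESeq2 1.42.0 and limma 3.58.1 were alternatives. Named miRNAs are the members, the 3 most like miR-181a, and miRNAs of the marker lists and the vascular and immune list where a result turned on them. Members and lists were chosen with earlier results of these data known.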

Additional observations from a re-analysis of the deposited data

How the results depend on the processing

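No member passed under any setting, with adjusted p-values of 0.304 to 0.997 for miR-181a and 0.323 to 0.996 for the other 3. Their log2 fold changes kept their sign in 57 of 76 repeats and changed it in 19. That of miR-181a, 0.01 with TMM, was -0.67 with total reads, -0.63 with the total of all rows, -0.15 without the 5 most abundant miRNAs (both chosen after the data were seen), -0.0076 with upper quartile scaling, -0.72 with limma on log2(RPM + 0.5) and -0.72 with log2(RPM + 0.1), -0.033 with every row as deposited and -0.31 with Duroc library 2 alone. That of miR-181d-5p was 0.0066 without the filter. Leaving out 1 library gave -0.10 to 0.14 for miR-181a, -0.19 to -0.05 for miR-181b, -0.32 to 0.11 for miR-181c and -0.10 to 0.058 for miR-181d-5p.

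Against 0 members without overlap, total reads gave 3, the total of all rows 3, the total without the 5 most abundant 1, Duroc library 2 alone 4, and leaving out 1 library 0 to 1. Against 0 of all miRNAs called, DESeq2 called 11, no filter 5, Duroc library 2 alone 1, and leaving out 1 library 0 to 65, with 65 without Duroc library 2, 1 without Duroc library 3 and 0 without any other.

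With the replicate number as a block 1 miRNA was called, and miR-181a had -0.011. Same-numbered libraries of the breeds had correlations of deviations of -0.24, -0.13 and -0.06, and the number names the libraries only.

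For shares within the family, Duroc library 2 alone gave -0.382 percentage points for miR-181a and 0.186 for miR-181b. Leaving out 1 library gave 0.109 to 1.505 for miR-181a, -1.31 to -0.0724 for miR-181b, -0.361 to 0.0894 for miR-181c, -0.309 to 0.312 for miR-181d-5p and -0.0051 to 0.012 for miR-181d-3p. The test of strand ratios had no precursor with 10 reads, or 1 read, of both strands in each library. The depth of the Large white libraries limits miR-181c and miR-181d-3p most.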
